A study of Mus musculus with 9 samples.

Results

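Acute phase proteins are plasma proteins whose synthesis by the liver changes during inflammation, and 10 of their genes were followed here in the liver of KKAy mice: the serum amyloid A genes Saa1, Saa2, Saa3 and Saa4, the orosomucoids Orm1 and Orm2, haptoglobin (Hp), lipocalin 2 (Lcn2), serum amyloid P (Apcs) and Itih4. They were taken by name. The platform annotation assigned 12 probe sets to the 10 genes, of 45037 probe sets tested in all, and Saa1 and Saa4 had 2 each. KKAy mice carry the yellow agouti allele on the KK background and are an obese model of type 2 diabetes. All mice were 8 weeks old and all samples were liver. The 3 groups had 3 arrays each: mice labelled as receiving no treatment (KKAy, called untreated here), mice given insulin at 40 µg/mL (Insulin), and mice given the same total insulin concentration of which 11% had been biomineralized in place (BI). Both treatments were 100 µL injections into the peritoneum, and the protocol also describes control mice injected with culture medium alone, without saying whether these are the untreated group. The chow held 34% fat, except that the growth protocol of BI replicate 2 describes rats. Each group is described as 8 to 12 mice, but no label ties an array to an animal or to pooled RNA. The p-values below therefore reflect how far these 3 arrays a group lay apart, whatever the source of that spread.

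In an acute phase response, cytokines released by activated macrophages, above all interleukin 6 and interleukin 1, reach the hepatocyte and act through STAT3, NF-kB and transcription factors of the C/EBP family. Genes of positive acute phase proteins are then transcribed more and those of negative ones, such as albumin and transthyretin, less. Saa1, Saa2, Orm1, Orm2, Hp, Lcn2 and Apcs are classical positive members in the mouse liver. Saa4 is the constitutive member of its family, and Saa3 is also made outside the liver, in adipose tissue and macrophages.

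Promoter sequences from RefSeq (build GRCm38.p6) were matched by symbol for 8 of the 10 genes, all but Orm1 and Hp. The 250 bases before the transcription start are shown for the 3 genes whose levels varied most between arrays, Saa3, Lcn2 and Orm2, and for Saa1 and Saa2, whose flanking sequences are near copies of each other. They lie at chr7:46715677-46715926 (minus strand) for Saa3, chr2:32387740-32387989 (minus strand) for Lcn2, chr4:63362199-63362448 (plus strand) for Orm2, chr7:46742981-46743230 (minus strand) for Saa1 and chr7:46751583-46751832 (plus strand) for Saa2. Each is written 5′ to 3′ in the direction of the gene, and capitals mark a match on either strand to TTGCNNAA, letters found in many sites of the C/EBP family.
Saa3: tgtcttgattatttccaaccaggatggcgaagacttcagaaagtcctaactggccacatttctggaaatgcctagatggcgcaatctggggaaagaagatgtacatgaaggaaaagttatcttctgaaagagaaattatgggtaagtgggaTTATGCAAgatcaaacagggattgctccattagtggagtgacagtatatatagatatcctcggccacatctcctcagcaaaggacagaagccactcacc
Lcn2: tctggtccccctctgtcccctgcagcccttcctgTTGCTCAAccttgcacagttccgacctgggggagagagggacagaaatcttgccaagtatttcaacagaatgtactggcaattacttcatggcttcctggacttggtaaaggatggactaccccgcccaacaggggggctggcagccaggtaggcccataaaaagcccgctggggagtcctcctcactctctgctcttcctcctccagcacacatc
Orm2: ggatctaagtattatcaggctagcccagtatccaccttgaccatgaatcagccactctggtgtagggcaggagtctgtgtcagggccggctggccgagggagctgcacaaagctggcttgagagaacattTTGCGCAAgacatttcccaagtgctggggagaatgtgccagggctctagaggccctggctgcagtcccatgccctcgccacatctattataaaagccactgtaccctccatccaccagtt
Saa1: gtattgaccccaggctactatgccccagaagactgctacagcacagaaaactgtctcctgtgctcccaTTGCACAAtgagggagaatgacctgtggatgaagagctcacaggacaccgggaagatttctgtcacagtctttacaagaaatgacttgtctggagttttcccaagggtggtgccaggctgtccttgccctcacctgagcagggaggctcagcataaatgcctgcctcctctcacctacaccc
Saa2: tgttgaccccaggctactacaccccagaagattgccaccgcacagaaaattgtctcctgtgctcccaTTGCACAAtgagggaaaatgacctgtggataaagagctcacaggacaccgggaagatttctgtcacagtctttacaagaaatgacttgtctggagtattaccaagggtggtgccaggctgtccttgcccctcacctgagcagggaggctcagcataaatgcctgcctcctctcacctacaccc

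Of the 8 promoters, 6 held TTGCNNAA on either strand (Saa1, Saa2, Saa3, Saa4, Orm2 and Lcn2), against 9.56% of 32851 promoter windows of this length. The match in Orm2 was the palindrome TTGCGCAA and began at position -120 from the transcription start. Saa1 and Saa2 both carried TTGCACAA, at positions -182 and -183, and the window of Saa1 was identical to that of Saa2 in 238 of 251 aligned columns (94.82%), so these 2 matches are not separate cases. The letters TTCNNNGAA, found in STAT sites, occurred in Apcs and Itih4 (2 of 8, against 7.02% of all windows). GGANTNTCC, a part of many NF-kB sites, occurred in none of the 8 and in 3.16% of all windows. None of the matches to one motif overlapped a match to another in these windows. These matches describe letters in the windows and are not evidence of binding.

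Deposited values are log2 signals, in which 1 unit is a doubling of signal, and array medians lay between 6.11 and 6.30. The highest signal of any probe set was 15.81 to 16.21 on the 9 arrays. Of the 12 member probe sets, 8 stayed between 14.73 and 15.67 on every array, near that upper end, and no saturation flag was used. Hepatocyte markers (11 of 12 measured) averaged 14.05 to 14.36 per array and none was at 0, so the livers expressed the markers of their label. In tissue samples such as these, fewer cells of a type and less RNA per cell cannot be told apart.

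**Figure D1:**
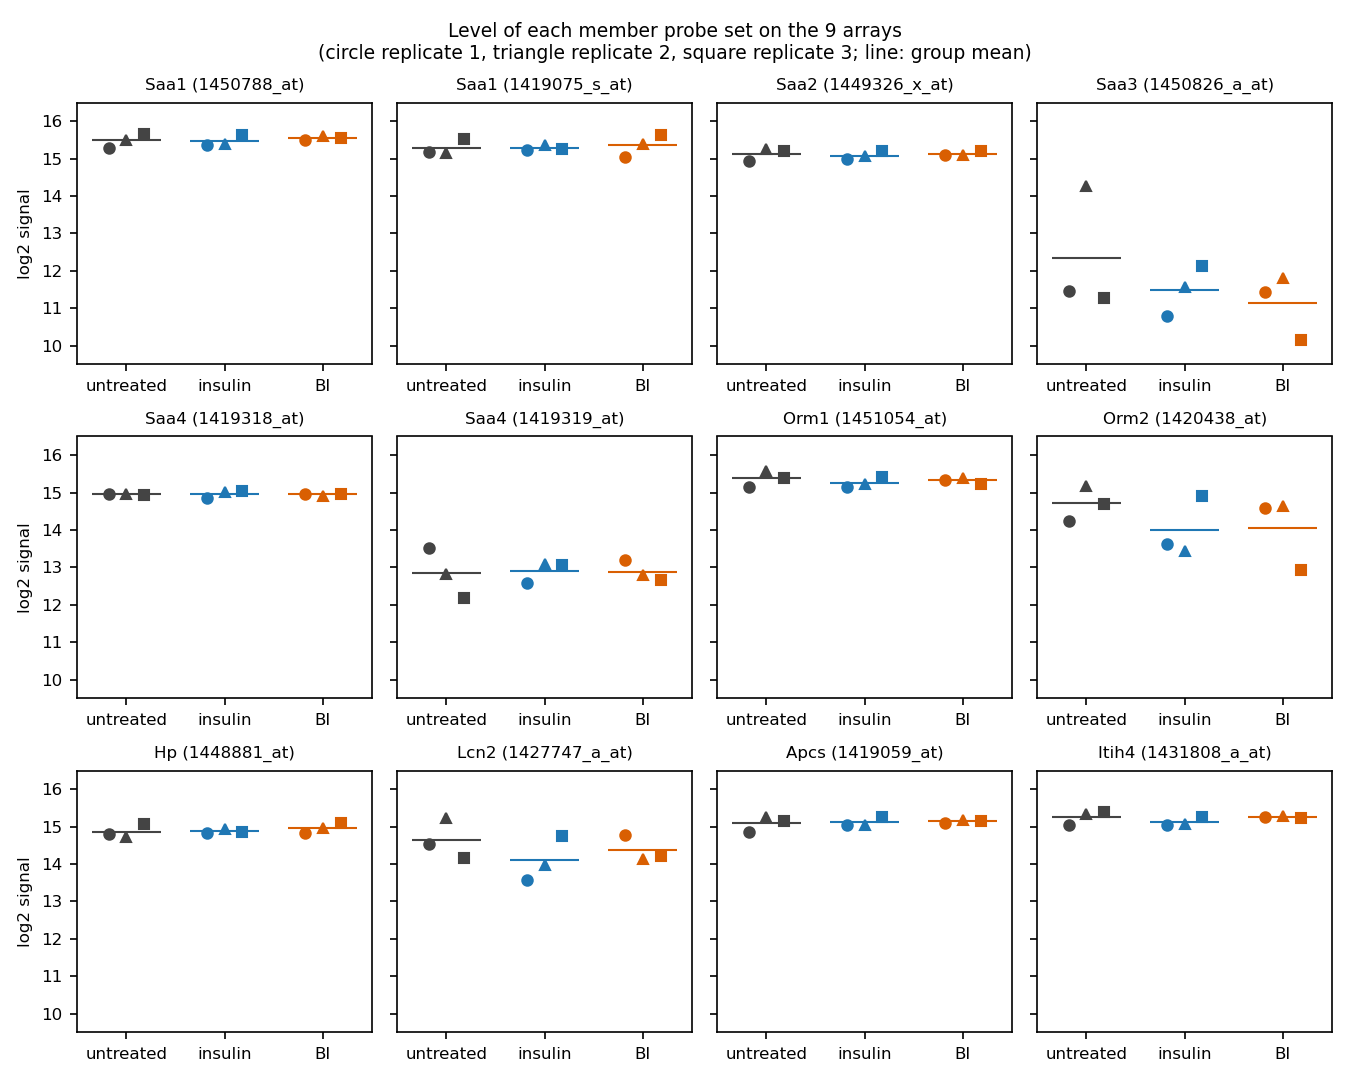
Level of each member probe set (log2 signal, vertical axis) on the 9 arrays by group, with a line at the group mean. Saa3 on untreated replicate 2 (14.27) stands above the other 8 arrays (10.16 to 12.14), while Saa1, Saa2, Orm1, Hp, Apcs, Itih4 and the brighter Saa4 probe set lie nearly flat.

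Saa3, an inducible serum amyloid A, was the most variable member. Its signal was 11.47, 14.27 and 11.28 on untreated replicates 1 to 3, 10.80, 11.56 and 12.14 on the insulin arrays and 11.44, 11.80 and 10.16 on the BI arrays. Untreated replicate 2 alone was above 12.14, and the groups overlapped because the other untreated arrays lay among the treated ones. On that array Saa3 was 2.82 log2 units above the median of the other 8, which is 7.06-fold on the linear scale, and 2.90 above the mean of the other untreated arrays. The lowest value was that of BI replicate 3, 1.35 below the median of the other 8.

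Lcn2, a protein that binds bacterial siderophores and so withholds iron, was 14.54, 15.24 and 14.16 on the untreated arrays. With insulin it was 13.58, 13.97 and 14.74, and with BI 14.77, 14.12 and 14.21. Untreated replicate 2 was again the highest array, 1.06 above the median of the other 8 (2.08-fold), and insulin replicate 1 was the lowest. Between these ends the 3 groups were interleaved.

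Orm2, an alpha-1-acid glycoprotein that binds drugs and lipids in plasma, was 14.24, 15.19 and 14.71 on the untreated arrays. It was 13.63, 13.43 and 14.92 with insulin and 14.58, 14.66 and 12.94 with BI. Here untreated replicate 2 was highest by a smaller margin (0.27 above insulin replicate 3), and the low arrays stood out instead. BI replicate 3 was 1.68 below the median of the other 8 and insulin replicate 2 was 1.19 below it. All 3 untreated arrays exceeded insulin replicates 1 and 2 and BI replicate 3, while insulin replicate 3 and BI replicates 1 and 2 lay within the untreated range.

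The inducible genes Saa1 and Saa2, whose proteins replace other apolipoproteins on high-density lipoprotein during inflammation, showed no such array. The brighter Saa1 probe set was 15.28, 15.50 and 15.67 on the untreated arrays, 15.36, 15.40 and 15.62 with insulin and 15.51, 15.61 and 15.56 with BI. The Saa2 probe set was 14.94 to 15.26, 14.98 to 15.20 and 15.09 to 15.21 in the 3 groups. Untreated replicate 2 exceeded the median of the other 8 arrays by 0.17 for Saa2 and was lower for Saa1, at -0.030 from it. The dimmer Saa1 probe set ranged from 15.04 to 15.63, correlated with the first at r = 0.43 over 9 arrays (Spearman 0.53), and is listed with a transcript that RefSeq assigns to Saa2. Signals of these near-identical genes cannot be assigned with certainty to one of them.

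The brighter probe set of Saa4, the constitutive serum amyloid A, had the smallest spread of the members, with values from 14.86 to 15.03 and a pooled SD within groups of 0.06. The dimmer one ranged from 12.18 on untreated replicate 3 to 13.53 on untreated replicate 1, with a pooled SD of 0.45. By these SDs the wide spread of the dimmer probe set was not shared by the brighter one, and the 2 correlated at r = 0.40 (Spearman 0.47). The brighter one lay near the upper end of the signals, where saturation is not known.

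Orm1, the second alpha-1-acid glycoprotein, was 15.15, 15.59 and 15.40 on the untreated arrays, 15.14, 15.23 and 15.43 with insulin and 15.35, 15.40 and 15.23 with BI. Its highest array was untreated replicate 2, by 0.16. Apcs, a pentraxin that binds to amyloid fibrils, lay between 14.85 and 15.27, and Itih4, a heavy chain of the inter-alpha-trypsin inhibitor family, between 15.04 and 15.39. Hp, which captures free haemoglobin, was 14.81, 14.73 and 15.06 on the untreated arrays, 14.84, 14.93 and 14.85 with insulin and 14.83, 14.97 and 15.11 with BI. Untreated replicate 2 was thus the lowest of the 9 arrays for Hp, but close to untreated replicate 1 and only at -0.17 from the median of the other 8. For Saa3, Lcn2 and both orosomucoids it was the highest.

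Within groups, the pooled SD was 1.16 for Saa3, 0.78 for Orm2, 0.51 for Lcn2 and 0.45 for the dimmer Saa4 probe set. These stood at the 99.6, 98.9, 96.4 and 95.1 percentiles of the 9008 brightest probe sets. The median SD of the 200 probe sets nearest in level was 0.16 for Saa3, 0.11 for Orm2 and 0.11 for Lcn2. The other 8 member probe sets had SDs of 0.06 to 0.21, at the 1.40 to 66.1 percentiles. Against their own 200 neighbours in level, 7 of these 8 had a larger SD than the median neighbour, from the 57 percentile for Saa2 to 83 for Orm1 and 96 for the dimmer Saa1 probe set. The brighter Saa4 probe set stood at the 8 percentile.

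To ask whether insulin changed these genes, the insulin arrays were compared with the untreated ones. No member probe set passed the threshold, a Benjamini-Hochberg adjusted p of 0.05 over all 45037 probe sets in limma (0 of 12, where 0% of all probe sets passed). None reached an unadjusted p of 0.05 either, against 4.47% of all probe sets, and the smallest was 0.201 for Lcn2. The largest differences were those of Saa3 (-0.84 ± 0.86, SE), Orm2 (-0.72 ± 0.58) and Lcn2 (-0.55 ± 0.39), each with a limma adjusted p of 0.9999. The remaining 9 probe sets differed by -0.14 to 0.067. For Saa1 the 95% interval of the difference was -0.42 to 0.37, and for Saa3 it was -2.84 to 1.15. The groups overlapped for 12 of 12 member probe sets, while they did not overlap for 9.19% of all probe sets. The median difference over the 10 genes was -0.081, against 0.019 over all probe sets, and -0.064 with quantile normalization or -0.13 with equal array medians.

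The BI arrays were compared with the same untreated arrays to ask how the liver responded to the mixture. Again 0 of 12 member probe sets passed, where limma called 5 of 45037 (0.0111%), and 0 of 12 reached an unadjusted p of 0.05 (all probe sets: 4.48%). Saa3 differed by -1.21 ± 0.86 (95% interval -3.20 to 0.79, unadjusted p 0.198, limma adjusted p 0.9991), Orm2 by -0.65 ± 0.58 and Lcn2 by -0.28 ± 0.39. The other 9 differed by -0.054 to 0.10. For Apcs the 95% interval was -0.34 to 0.46 and for Hp -0.28 to 0.49. No member probe set separated the groups (all probe sets: 9.21%). The median over the 10 genes was -0.0060, against 0.016 over all probe sets. It was -0.035 with quantile normalization or equal array medians and 0.033 without untreated replicate 2. Both treated groups are compared here with the same 3 untreated arrays.

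In BI against insulin, which asks whether the biomineralized form made a difference, 0 of 12 passed (limma, 0% of all probe sets) and 0 of 12 reached an unadjusted p of 0.05 (all probe sets: 4.04%). Saa3 differed by -0.37 ± 0.86, Lcn2 by 0.27 ± 0.39 and Orm2 by 0.064 ± 0.58, whose 95% interval ran from -1.30 to 1.43. The other 9 differed by -0.028 to 0.13, and no member probe set separated the groups (all probe sets: 9.6%). The median over the 10 genes was 0.062, against -0.0083 over all probe sets, and 0.011 with quantile normalization. In a moderated F test over the 3 groups 0 of 12 members passed, as did 0% of all probe sets, with a smallest unadjusted p of 0.397 among the members and 1981 of all probe sets under 0.05.

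**Figure D2:**
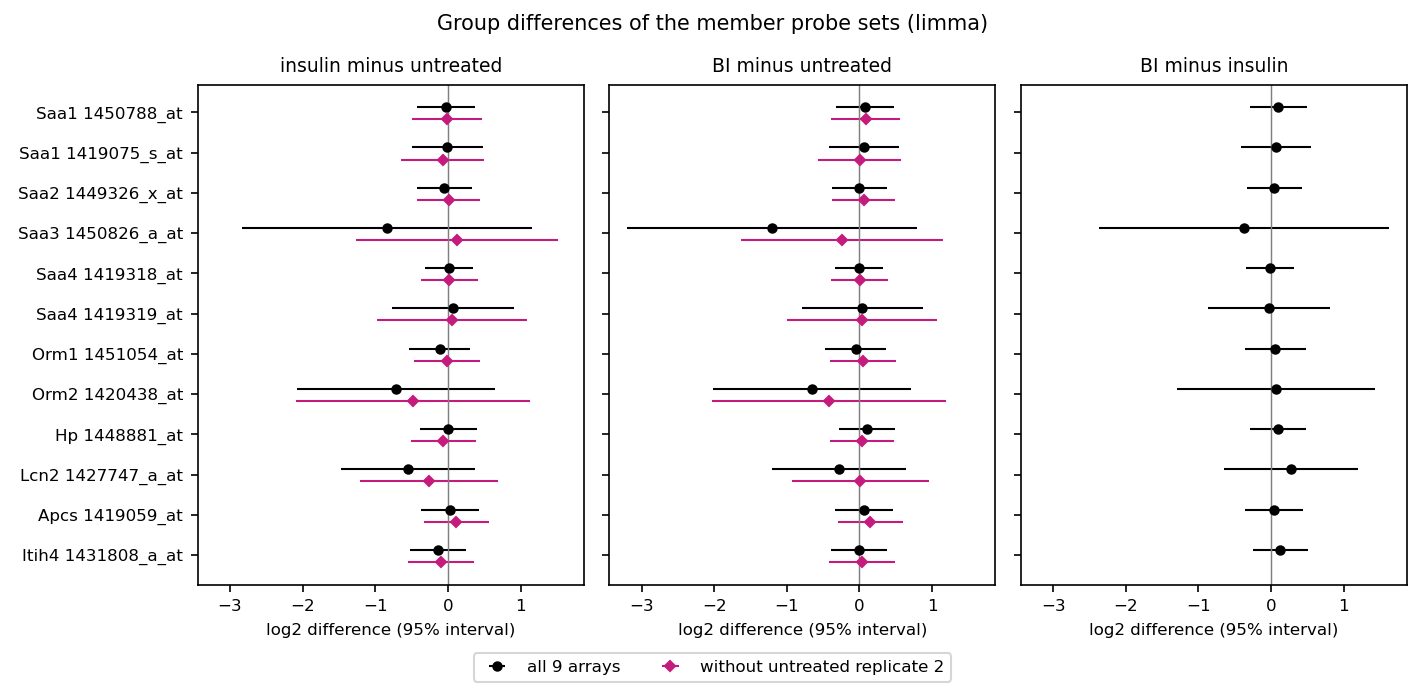
Log2 difference of each member probe set with its 95% interval from the limma fit, in the 3 comparisons, with all 9 arrays (circles) and, against untreated, without untreated replicate 2 (diamonds). Each interval includes 0, and the Saa3 difference between insulin and untreated moves from -0.84 to 0.13 without that array.

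The negative differences from untreated rested in part on untreated replicate 2. Without it, Saa3 stood at 0.13 ± 0.58 with insulin and -0.24 ± 0.58 with BI, and Lcn2 at -0.26 ± 0.39 and 0.013 ± 0.39. Orm2 moved less, to -0.48 ± 0.67 and -0.42 ± 0.67, and its BI difference was instead -0.094 without BI replicate 3. The limma adjusted p without untreated replicate 2 was 0.9999 for insulin and 0.9997 for BI, for each of these 3 genes.

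Untreated replicate 2 was the highest of the 9 arrays for 6 of the 10 member genes (Saa2, Saa3, Orm1, Orm2, Lcn2 and Apcs), while 12.4% of all probe sets and 17% of the 9008 brightest were highest on it. Its margin over the next array was 2.14 for Saa3, 0.48 for Lcn2, 0.27 for Orm2 and 0.16 for Orm1, but 0.049 for Saa2 and 0.0095 for Apcs. Members were over 2-fold above the median of the other 8 arrays only there, in 2 of 10 genes (Saa3 and Lcn2), against 0.844% of the 9008 brightest probe sets on that array. On the low side, members were over 2-fold below the median of the other 8 on BI replicate 3 (Saa3 and Orm2) and on insulin replicate 2 (Orm2). No share of all probe sets is given for the low side, so these low values cannot be judged against it. The mean of the 10 genes, each taken relative to its own mean, was 0.49 on untreated replicate 2, 0.20 on insulin replicate 3, -0.31 on insulin replicate 1 and -0.27 on BI replicate 3. It ranged from -0.17 to 0.06 on the remaining arrays. Without Saa3 it was 0.26 on untreated replicate 2 and 0.17 on insulin replicate 3.

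**Figure D3:**
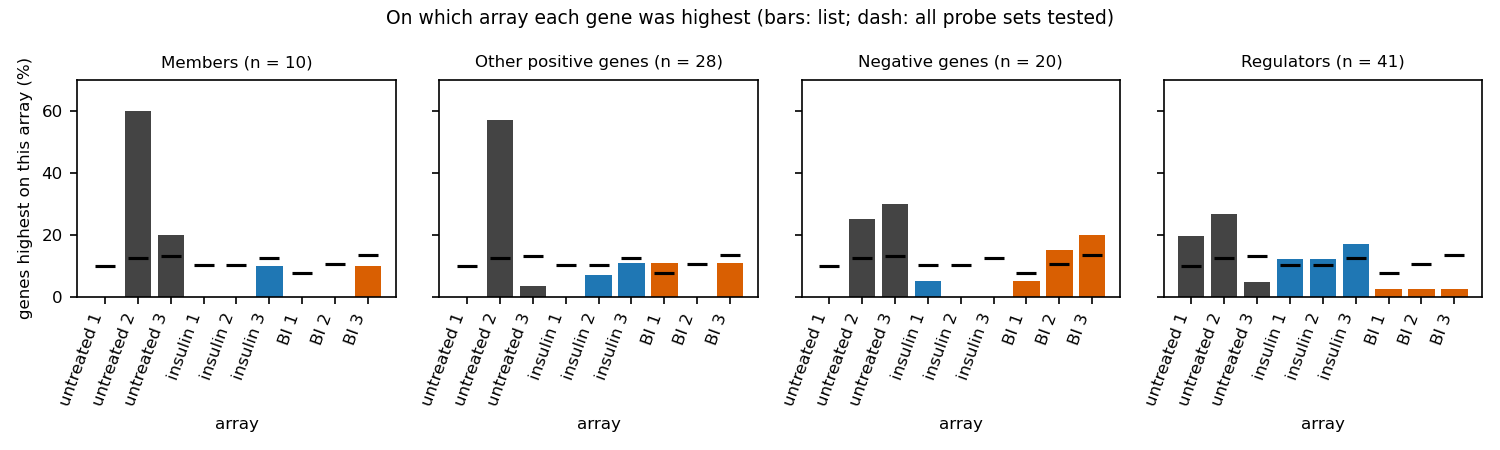
Share of genes (vertical axis, %) that were highest on each of the 9 arrays, for the 10 members, 28 other positive acute phase genes, 20 negative ones and 41 regulators, with dashes for all probe sets tested. Untreated replicate 2 holds 6 of 10 members and 16 of 28 other positive genes, against 12.4% of all probe sets.

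Other genes of the acute phase response were followed as lists of positive acute phase genes (28 of 35 measured), negative ones (20 of 22) and regulators (41 of 44). On untreated replicate 2 the positive list resembled the members. It was highest there for 16 of 28 genes, against 12.4% of all probe sets. On that array 6 of 28 genes were over 2-fold above the median of the other 8, against 0.844% of the 9008 brightest probe sets. These were Cd14, the co-receptor for bacterial lipopolysaccharide (12.03 against 7.25 to 9.86 on the other arrays, 3.94 above their median), the orosomucoid Orm3 (12.65, 2.02 above), the metallothionein Mt1 (15.29, 1.60 above), the protease Ctsc (1.17 above), the protease inhibitor Serpina3n (12.98, 1.16 above) and the interleukin 1 receptor antagonist Il1rn (1.04 above). Crp, a pentraxin that is only a minor acute phase protein in the mouse, was lowest there (14.05), and Fgg, a fibrinogen chain, stood at -0.059 from the median of the other 8. Other arrays also held genes of this list over 2-fold above the median of their other 8. These were Cd14 (1.77) and Mt1 (1.20) on insulin replicate 3 and Orm3 (1.07) on BI replicate 1.

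Among regulators, 11 of 41 genes were highest on untreated replicate 2, against 12.4% of all probe sets, and 4 were over 2-fold above the median of the other 8 arrays. The 2-fold share of 0.844% on that array covers only the 9008 brightest probe sets, and several regulators were dimmer than these. Socs3, the feedback inhibitor that STAT3 induces, was 13.09 there against 10.10 to 12.16 elsewhere. Cebpd, a C/EBP factor induced by interleukin 6, was 10.60 (1.41 above the median of the other 8), the oncostatin M receptor Osmr 9.84 (1.33 above) and the Toll-like receptor Tlr2 9.04 (1.25 above). Insulin replicate 3 also held 4 of 41, with Cebpd 1.19, Osmr 1.03, Socs3 1.03 and the interleukin 1 receptor Il1r1 1.03 above the median of its other 8 arrays. The cytokine Il6 itself was dim, between 0.03 and 4.90, with 4.14 on untreated replicate 2, and whether such signals lay above background is not known. Stat3 was 11.85 there, below untreated replicate 1 (11.91), and the interleukin 6 receptor Il6ra stood at -0.56 from the median of the other 8. The receptor Lifr (-1.03), the clock gene Per1 (-1.21) and the inhibitor Socs1 (-1.23) were over 2-fold below that median on untreated replicate 2. Per1 was 6.53 there and lower still on BI replicate 2 (5.54). Socs1 was dim, with 4.40 there and lower values on untreated replicate 3 (2.98) and BI replicate 1 (3.43).

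Of the negative list, 5 of 20 genes were highest on untreated replicate 2, against 12.4% of all probe sets. These were Itih2 (0.51 above the median of the other 8 arrays), Igf1 (0.49), Fetub (0.43), Ahsg (0.39) and Hrg (0.14). In the other direction, Cyp8b1, which directs bile acid synthesis towards cholic acid, was 9.51 there, 2.13 below the median of the other 8 arrays. It was also over 2-fold low on BI replicate 1 and insulin replicate 3. Pon1 and Apom were lowest on untreated replicate 2 as well, at -0.98 and -0.67 from the median of the other 8, so the list was mixed there. No gene of this list was over 2-fold above the median of the other 8 arrays on untreated replicate 2.

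**Figure D4:**
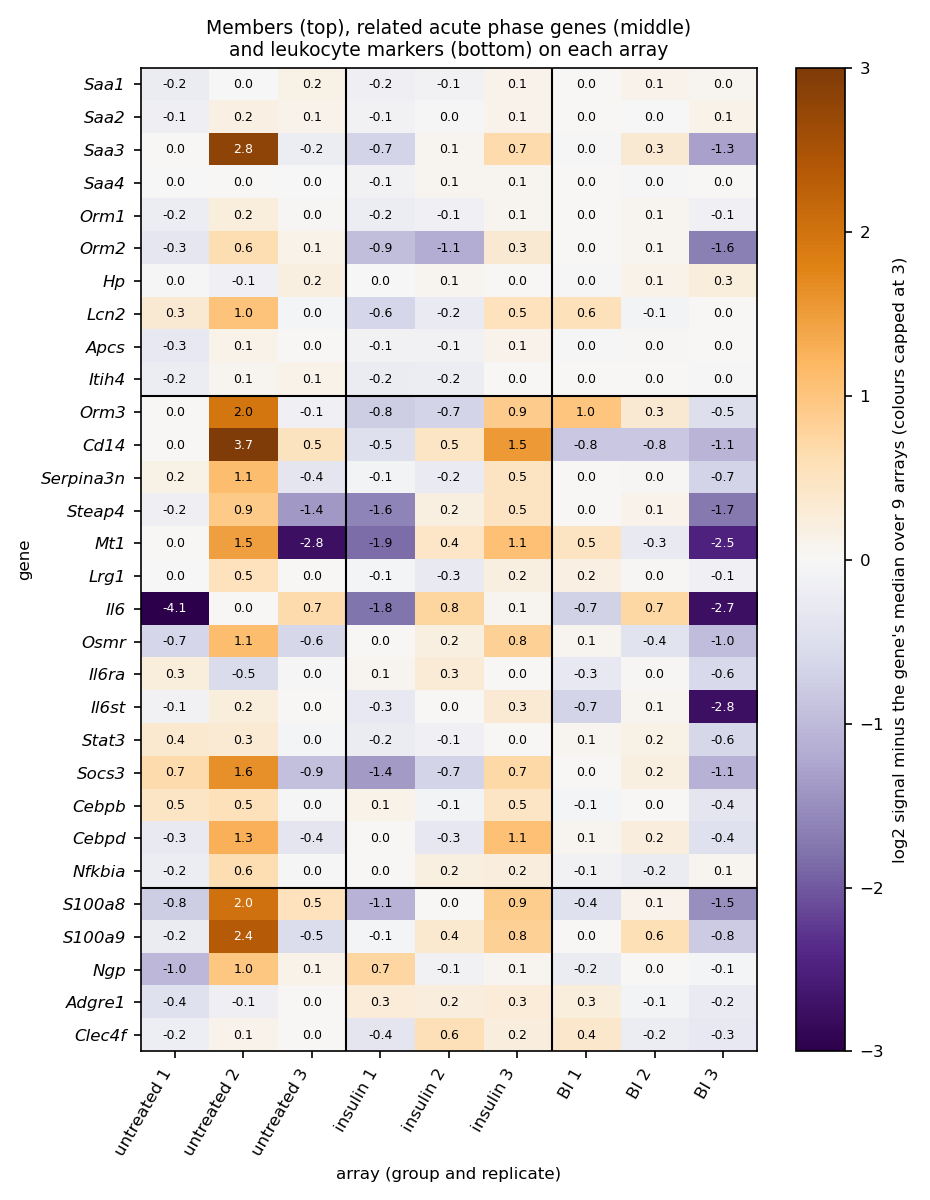
Log2 signal minus the gene's median over the 9 arrays, printed in each cell and coloured (colours capped at 3), for the 10 members (brighter probe set), 15 related acute phase genes and 5 leukocyte markers, the last 20 being chosen for display after their values were seen. Untreated replicate 2 is high for Saa3, Lcn2, Orm3, Cd14, Socs3, Cebpd, S100a8 and S100a9. BI replicate 3 is low for Saa3, Orm2, Steap4 and Mt1, and untreated replicate 3 and insulin replicate 1 are also low for Steap4 and Mt1.

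Between groups, none of these lists held a gene past the limma threshold in any comparison. Of the positive list 11 of 28 genes had higher means with insulin (median difference -0.069) and 9 of 28 with BI (-0.080), against medians of 0.019 and 0.016 over all probe sets. Without untreated replicate 2 the counts became 17 and 18 of 28, and the medians 0.045 and 0.048. Named by smallest p were Cd14 with BI (-2.32 ± 0.96, limma adjusted p 0.9991), the pantetheinase Vnn1 with BI (1.08 ± 0.52), Lgals3bp (0.47 ± 0.34) and the carboxypeptidase Cpn1 (-0.24 ± 0.17) with insulin, and A2m (-0.92 ± 0.47) and Vnn1 (0.92 ± 0.52) in BI against insulin. A2m was dim, between 5.16 and 7.24, and whether it lay above background is not known. Cd14 was 8.32, 12.03 and 8.81 on the untreated arrays and 7.49, 7.48 and 7.25 on the BI arrays, so all BI values lay below all untreated ones. Without untreated replicate 2 the Cd14 difference was -1.16 ± 0.55, that of Cpn1 with insulin was -0.13 ± 0.18 and that of Vnn1 with BI was 1.57 ± 0.45 (limma adjusted p 0.9997, 0.9999 and 0.841). The groups did not overlap for 2, 1 and 4 of the 28 genes in insulin against untreated, BI against untreated and BI against insulin, where 9.19%, 9.21% and 9.6% of all probe sets did not overlap.

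Of the negative list 6 of 20 genes had higher means with insulin (median -0.088) and 8 of 20 with BI (median -0.021). Cyp7a1, the rate-limiting enzyme of bile acid synthesis, had the smallest p, with 11.49, 12.16 and 13.06 on the untreated arrays, 11.71, 12.14 and 11.31 with insulin and 10.76, 10.82 and 10.91 with BI. The BI arrays were below all 6 others, and the difference from untreated was -1.41 ± 0.40 (unadjusted p 0.00877, limma adjusted p 0.923), which did not pass. BI against insulin gave -0.89 ± 0.40 for Cyp7a1 and -0.33 ± 0.23 for Itih1, whose difference from untreated with BI was -0.51 ± 0.23. Itih1 was dim, between 5.96 and 6.99, and whether it lay above background is not known. With insulin, coagulation factor F12 (-0.25 ± 0.18) and Cyp7a1 (-0.52 ± 0.40) had the smallest p. The groups did not overlap for 1, 3 and 2 of the 20 genes in the same order of comparisons (9.19%, 9.21% and 9.6% of all probe sets).

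Of the regulators 24 of 41 genes had higher means with insulin (median 0.031, but -0.022 with equal array medians) and 15 of 41 with BI (median -0.062). Il1a, a precursor cytokine of the interleukin 1 family, had the smallest p against untreated, at 0.83 ± 0.32 with insulin and 0.88 ± 0.32 with BI (limma adjusted p 0.9999 and 0.9991), next to the kinases Tyk2 (0.30 ± 0.19, insulin) and Ikbkb (-0.32 ± 0.16, BI). In BI against insulin these were the cytokine Lif (-0.83 ± 0.31) and the shared receptor subunit Il6st (-1.13 ± 0.65), which was 9.57 on BI replicate 3 and 11.64 to 12.62 on the other 8 arrays. In that order, the groups did not overlap for 2, 2 and 1 of the 41 genes, against 9.19%, 9.21% and 9.6% of all probe sets.

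Because Lcn2 and Saa3 are also made by leukocytes, marker lists were set beside them. The neutrophil list (12 of 14 measured, none at 0 on any array) was highest on untreated replicate 2 for 7 of 12 genes. Of all probe sets, 12.4% were highest on that array. Its summed linear signal was 12889 there, 2362 and 3998 on the other untreated arrays, 2482 to 5999.9 with insulin and 1640.1 to 3637 with BI. S100a8 (12.74), the granule gene Prtn3 (11.39) and S100a9 (11.29) led this sum, and each was highest on that array. S100a8 and S100a9 encode calgranulin subunits abundant in neutrophils. The granule genes Ngp (7.84), Camp (6.69) and Elane (7.01) were highest on that array too, while Mpo (5.14), Csf3r (6.77) and Ltf (6.37) were not. The macrophage and Kupffer cell list (13 of 13) summed to 17735, 30042 and 24459 on untreated replicates 1 to 3. It summed to 21107 to 30232 with insulin and 17517 to 32692 with BI, and was highest on untreated replicate 2 for 4 of 13 genes. The part of either cell type in the levels of Saa3, Lcn2, Cd14 or Socs3 was not tested. For adipocyte (6 of 8 measured), endothelial (8 of 8), stellate (8 of 8), lymphocyte (7 of 8) and pancreas (4 of 5) lists, 0 genes were highest on untreated replicate 2, and for cholangiocytes 2 of 4. No marker of these lists was at 0. For Gapdh, whose 3' and 5' control probe sets report on RNA integrity, the gap between both ends was 0.31 on that array and 0.26 to 0.65 across all 9.

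How the members varied together was described by Pearson correlations over the 9 arrays, given without a test because arrays share their processing. Over the 45 pairs of genes the median r was 0.43 (-0.67 to 0.88), and 0.48 after group means were subtracted. Saa3 correlated with Lcn2 at 0.74 and with Orm2 at 0.75. Without untreated replicate 2 the first was 0.45 and the second was 0.79. Saa1 and Itih4 had the highest r without that array (0.94 over 8 arrays), and Saa1, Saa2, Orm1, Apcs and Itih4 correlated with each other at 0.66 to 0.88 over 9. Hp correlated negatively with Saa3 (-0.67), Lcn2 (-0.52) and Orm2 (-0.49), and less so without untreated replicate 2 (-0.49, -0.27 and -0.33). The mean of the 7 genes other than Saa3, Lcn2 and Orm2 correlated at 0.69 (Spearman 0.73) with the mean of the 445 other probe sets at a mean level of 14 or more. It ranged from -0.15 on untreated replicate 1 to 0.095 on untreated replicate 3, where those 445 probe sets stood at -0.066 and 0.062.

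Over the 9 arrays, the genes outside the list most like the mean of the 10 members, among 10785 candidates at or above the median level, were Rab32, a small GTPase (r = 0.96, Spearman 0.92), the apolipoprotein Apon (0.96, 0.95), Litaf (0.95, 0.90), the ribonuclease Rnase4 (0.94, 0.97) and the kinase Stk38l (0.94, 0.92). Without untreated replicate 2 their r was 0.87 to 0.92. Those running most opposite were Fkbp3 (-0.94), Serpina12, the adipokine vaspin (-0.94), Casp14 (-0.94), the peroxisomal Pex11g (-0.94) and Smim26 (-0.94). Litaf, for example, was 13.43 on untreated replicate 2, 13.20 on insulin replicate 3 and 12.33 to 12.78 on the other 7 arrays, and Serpina12 was lowest on untreated replicate 2 (11.51) and highest on BI replicate 3 (13.47). These 10 are the extremes of many candidates, so their r is a description only.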

How the data were processed

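Liver RNA of 9 samples was hybridised to one-colour Affymetrix 3' expression arrays as biotin-labelled cRNA, per the labels' protocols. Each sample's deposited column gives a log2 signal for every probe set. No source used here names the software behind these signals. The lowest value was 0 on every array (152 to 247 probe sets), and the mean linear signal after trimming 2% at each end was 500.004 on all arrays, so values were used as deposited. Of 45101 probe sets, 64 controls were left out. Names came from the platform annotation, updated by gene ID (34945 probe sets with 1 symbol, 932 with several, 9160 unnamed here; 34741 matched a current name). A gene with several probe sets was represented by the one of highest mean.

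All 9 arrays entered 1 limma fit (version 3.58.1, R 4.3.3; lmFit and eBayes, 6 residual degrees of freedom) with group as the only factor and Benjamini-Hochberg adjustment over 45037 probe sets. The fit was tested on simulated data. Alternatives are given in the closing section. By the rule for named genes, all members were named, and of each list the genes past the threshold or the 2 of smallest p; the likeness list took the 5 highest and 5 lowest correlations. Members and lists were chosen with earlier results of these data known. Genes picked out for untreated replicate 2 were named after their values were seen, as were the 2-fold counts per array, the 200 neighbours in level and the 445 bright probe sets. The number of arrays limits the precision.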

Additional observations from a re-analysis of the deposited data

How the results depend on the processing

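The fits were repeated after quantile normalization or equal array medians, with a filter at the median mean level (6.04) or a floor at 6, with trend and robust fitting, with only both groups of a comparison, with array weights, with the replicate number as a block, with probe sets of a gene averaged, and with each array left out in turn. Leaving untreated replicate 2 out of the list medians, and rescaling the lists, were chosen after seeing the data. No member probe set passed the threshold in any comparison under these settings (smallest adjusted p 0.966), nor in the F test after quantile normalization or with trend and robust fitting. Of 642 recomputed member differences 312 equalled the main value, as the filter, the floor, trend and robust fitting, only both groups and the replicate block do not move these means, nor does leaving out an array of the group not compared. Of the 330 that moved, 271 kept their direction and 59 reversed. The median over the members was -0.13 to -0.064 (insulin minus untreated), -0.035 to -0.0053 (BI minus untreated) and 0.011 to 0.086 (BI minus insulin) with all arrays, and -0.18 to -0.012, -0.11 to 0.033 and -0.00094 to 0.12 when 1 array was left out.

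Several differences changed sign, among them that of Saa3 in insulin minus untreated. With 1 array left out, the Saa3 difference reversed only without untreated replicate 2 (0.13). What set that array apart, and the cause of the other sign changes, were not tested. With quantile normalization the brighter and dimmer Saa1 probe sets stood at 0.020 and 0.030 in insulin minus untreated, and Orm1 at -0.014 and Apcs at -0.013 in BI minus insulin. With equal array medians the brighter Saa4 probe set stood at -0.036, Hp at -0.046 and Apcs at -0.029 in insulin minus untreated, and Saa4 at 0.0053 in BI minus insulin. The mean of both Saa4 probe sets was 0.019 in BI minus untreated. With 1 array left out, insulin minus untreated ran from -0.13 to 0.065 and from -0.070 to 0.11 for the brighter and dimmer Saa1 probe sets, -0.14 to 0.014 for Saa2, -1.37 to 0.13 for Saa3, -0.014 to 0.072 and -0.27 to 0.41 for Saa4, -0.062 to 0.10 for Hp and -0.095 to 0.11 for Apcs. BI minus untreated ran from -0.026 to 0.17 and -0.076 to 0.22 for Saa1, -0.097 to 0.060 for Saa2, -0.011 to 0.016 and -0.29 to 0.38 for Saa4, -0.17 to 0.051 for Orm1, -0.53 to 0.013 for Lcn2, -0.059 to 0.15 for Apcs and -0.11 to 0.053 for Itih4. BI minus insulin ran from -0.069 to 0.23 for the dimmer Saa1 probe set, -0.0037 to 0.10 for Saa2, -0.72 to 0.12 for Saa3, -0.074 to 0.013 and -0.19 to 0.085 for Saa4, -0.0026 to 0.14 for Orm1, -0.24 to 0.62 for Orm2 and -0.0016 to 0.11 for Apcs.

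Over all probe sets, the 5 called in BI minus untreated became 1 with the filter and 0 with the floor, with only both groups compared and with the replicate block, and 0 to 2 when 1 array was left out. BI minus insulin had 0 calls and 1 with the filter, and 0 to 1 when 1 array was left out. Same-numbered arrays of different groups did not vary together (correlations of their deviations from the group means -0.034 to 0.036), so the numbers were not treated as pairs. In this balanced layout the replicate block cannot move a difference (Saa3 with insulin is -0.84 either way), and with it no member was called. With equal array medians 0 of 10 members, 9 of 28 positive, 5 of 20 negative and 18 of 41 regulator genes had higher means with insulin, and 3, 5, 6 and 12 with BI. Background and saturation of the signals are not known, which limits what the flat, bright probe sets can show.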
